A study of Mus musculus with 18 samples.

Results

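The transcripts described here come from 8 potassium channel genes in NKT1, NKT2 and NKT17 cells, the 3 kinds of invariant natural killer T (iNKT) cell in the mouse thymus, namely Kcna1, Kcna2, Kcna3, Kcnj8, Abcc9, Kcnk1, Kcnk5 and Kcnn4. They were picked by symbol, as channels with a pattern over the subsets, out of 23337 rows of a gene count table, of which 15582 had at least 1 count. Kcna2 and Abcc9 had at most 6 counts and 1 count in any library and show no such pattern. No sodium channel gene is among them, and Abcc9 encodes a regulatory subunit and not a pore. The differences between subsets therefore chose these genes and are given as description, without a test; tests are given for the comparison of the genotypes.

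iNKT cells were sorted from thymi of BALB/c mice that were wild type (WT) or SKG, a strain on the same background with a spontaneous mutation that weakens ZAP70, the kinase that carries the signal of the T cell receptor. NKT1 cells were gated as CD1d-tetramer-positive, ICOS-low and CD49a-positive; NKT2 cells as CD49-negative, Sdc-1-negative, ICOS-high, CD4-high and TCRβ-high; and NKT17 cells as CD49-negative, ICOS-high and Sdc-1-positive. Each of the 6 groups (WT and SKG, each with NKT1, NKT2 and NKT17) held 3 libraries made from poly-A RNA with an adapted Smart-seq2 protocol; the ages of the mice and the number of mice behind a library are not given in the sources used here, and p-values measure only the spread between these libraries. Totals ran from 4391029 to 8895917 counts per library.

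The NKT1 and NKT17 markers separated the libraries by their labels, and the NKT2 markers did so less widely. Summed levels of 6 NKT17 markers (among them Il23r and Il17re) were 2382 to 2483 CPM (counts scaled to the total of the library) in the 6 NKT17 libraries and at most 14.3 CPM in all others, and those of 6 NKT1 markers (among them Tbx21 and Ifng) were 3597 to 4972 CPM in NKT1 and at most 408 CPM elsewhere. Those of 6 NKT2 markers (among them Icos, Zbtb16 and Cd4) were 2307 to 2451 CPM in WT NKT2 and 1662 to 2039 CPM in SKG NKT2, against 1389 to 1531 CPM in the NKT17 libraries and at most 745 CPM in NKT1. Markers of double-positive thymocytes, the CD4+CD8+ stage before selection, summed to 14.3 to 47.5 CPM in SKG NKT17 against 5.27 to 12.5 CPM in WT NKT17; Cd8b1 held most of this, at a mean of 22.5 against 6.54 CPM, while Rag1, Rag2, Dntt and Arpp21 had no count in either group. Of 6 B cell markers, Blk had a mean of 2002 CPM in WT NKT17 against 827.6 CPM in SKG NKT17, Cd79b one of 9.20 against 34.6 CPM, and Pax5 had no count in any library. Markers of vascular and mural cells, which are known for Kcnj8, summed to 12.5 to 30.7 CPM in NKT1, of which nearly all was Pecam1; Rgs5, Cspg4, Notch3, Cdh5 and Kdr had no count there. The part of other cell types in the differences between genotypes was not tested. In sorted bulk samples, a change in the share of cells that carry a transcript and a change in its level per cell cannot be told apart.

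Potassium channels let potassium leave the cell and so hold the membrane potential negative, which in T cells sustains the calcium entry that follows receptor engagement. Kcna3 encodes Kv1.3, the voltage-gated channel of T cells, and Kcnn4 encodes KCa3.1, a channel opened by calcium through bound calmodulin. Kcna1 and Kcna2 encode the related voltage-gated pores Kv1.1 and Kv1.2, best known from axons. Kcnk1 (TWIK-1) and Kcnk5 (TASK-2) encode two-pore-domain leak channels. Kcnj8 encodes Kir6.1, an inward rectifier that forms a channel gated by ATP together with a sulfonylurea receptor such as SUR2, the product of Abcc9.

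In the NCBIM37 (mm9) genome with GENCODE M1 annotation, Kcna3 lies at chr3:106839080-106841047 on the plus strand, as 1 exon, with Kcna2 63437 bases to its right at chr3:106904485-106909797. Kcnj8 (chr6:142513459-142519876) and Abcc9 (chr6:142536382-142650794) are neighbours on the minus strand of chromosome 6, with 16505 bases between them. Kcna1 lies further up that chromosome (chr6:126586481-126595819, minus strand). Kcnk1 is at chr8:128519002-128554583 (plus strand), Kcnk5 at chr14:20959280-21001004 (minus strand) and Kcnn4 at chr7:25155282-25170228 (plus strand).

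The bases before the annotated start of the 4 genes with the clearest subset or genotype patterns are shown because they are the sequences that stand beside those patterns. They are the 250 bases upstream of the start in RefSeq's promoter entries (GRCm38.p6), which held 7 of the 8 genes (all except Kcna1). Each matched the NCBIM37 genome exactly once, and the coordinates are of that build. The Kcnj8 window runs from 142520135, while the GENCODE gene on the minus strand starts at 142519876, so this window does not adjoin that start. Capitals mark matches, on either strand, to any of 6 short motifs: GGTGTGA (T-box), AGGTCA (ROR), GGAAA (NFAT core), TGANTCA (AP-1), TGTGGT (RUNX) and GCGTGGG (EGR).
Kcnj8, chr6:142520135-142520384, minus strand: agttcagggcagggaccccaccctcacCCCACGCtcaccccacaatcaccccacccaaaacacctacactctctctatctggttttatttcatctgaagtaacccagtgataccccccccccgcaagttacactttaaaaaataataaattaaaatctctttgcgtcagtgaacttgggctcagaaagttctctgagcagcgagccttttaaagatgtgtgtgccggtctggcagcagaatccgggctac
Kcnk1, chr8:128518752-128519001, plus strand: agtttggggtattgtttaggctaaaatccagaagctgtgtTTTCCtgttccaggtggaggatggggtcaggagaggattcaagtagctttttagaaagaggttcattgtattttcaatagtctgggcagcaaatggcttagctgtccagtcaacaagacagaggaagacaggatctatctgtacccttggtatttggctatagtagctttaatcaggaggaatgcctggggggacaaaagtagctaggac
Kcnk5, chr14:21001005-21001254, minus strand: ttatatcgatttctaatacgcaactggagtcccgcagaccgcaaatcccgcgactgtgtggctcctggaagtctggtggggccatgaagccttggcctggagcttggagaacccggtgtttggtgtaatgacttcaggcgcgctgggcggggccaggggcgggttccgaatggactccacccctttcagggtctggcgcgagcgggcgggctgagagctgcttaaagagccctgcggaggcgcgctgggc
Kcnn4, chr7:25155032-25155281, plus strand: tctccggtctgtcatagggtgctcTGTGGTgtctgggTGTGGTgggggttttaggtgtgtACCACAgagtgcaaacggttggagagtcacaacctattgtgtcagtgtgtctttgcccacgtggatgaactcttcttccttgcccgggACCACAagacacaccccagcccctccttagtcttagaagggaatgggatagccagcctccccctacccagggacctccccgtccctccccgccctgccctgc

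The Kcnn4 window held 4 matches to the RUNX letters, at 226, 213, 190 and 102 bases before the start. Of 32851 promoter entries, 14% held at least 1 match in a window of this length, and 0.0304% held 4 or more. The limit of 4 is the number seen in Kcnn4, the most of any of 6 motifs searched at 7 genes, so that share is not a test. The Kcnj8 window held 1 EGR match (in 4.3% of promoters) and the Kcnk1 window 1 NFAT core (in 55.6%). Kcnk5 had no match, with 19 CpG dinucleotides in its window, against 0 in the Kcnk1 window. No NFAT core, T-box or ROR match was found for Kcnn4 or Kcnj8. A match to such letters is a description of the sequence and was not linked to binding here.

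Kcnj8 was an NKT1 transcript. Its counts in WT NKT1 were 1789, 632 and 928 (216.0, 121 and 164 CPM), while SKG NKT1 had 124, 122.9 and 87.5 CPM. It had 0 counts in all 6 NKT17 libraries and at most 2 counts in any NKT2 library. With a floor of 3 counts per library for the groups that lacked it, the WT NKT1 mean was at least 309-fold higher than in NKT2 and at least 330-fold higher than in NKT17, and the SKG NKT1 mean at least 194-fold and 222-fold higher. The partner gene Abcc9, next to it on the chromosome, had at most 1 count in any of the 18 libraries, and the other sulfonylurea receptor gene, Abcc8, reached a mean of only 4.49 ± 3.62 CPM (SD, n = 3), in WT NKT2, with no count in SKG NKT1. Abcc9 overlaps 5330439B14Rik in the annotation, and whether reads were counted by strand is not given in the sources used here. The NKT1 libraries thus carried the pore transcript with little or none of the transcript of either receptor.

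Kcnk1 and Kcna1 were NKT17 transcripts. Kcnk1 stood at 124, 94.8 and 152 CPM in WT NKT17 and at 46.5, 35.9 and 54.2 CPM in SKG NKT17, with at most 1 count in any other library. Its WT NKT17 mean was at least 229-fold higher than in NKT2 and at least 253-fold higher than in NKT1, and in SKG these bounds were 79.0 and 80.3. Kcna1 had 160, 40 and 131 counts in WT NKT17 (31.2, 6.96 and 18.0 CPM). All 3 SKG NKT17 libraries had 0 counts of Kcna1, and no other library of either genotype had more than 4. Kcna2, its neighbour in the gene family, had 6 counts in 1 WT NKT1 library, 1 count in 1 SKG NKT17 library and none in the rest.

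**Figure D1:**
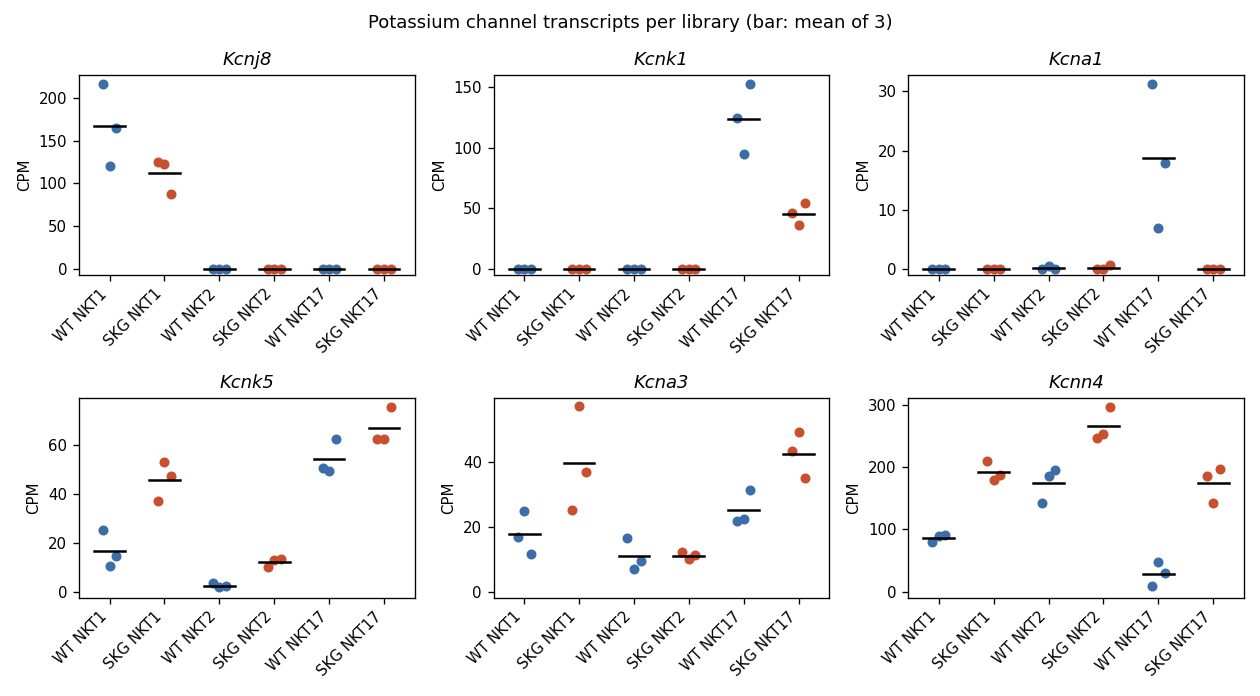
Level in CPM (vertical axes, linear, each panel with its own scale) of the 6 genes with more than 6 counts in any library, for the 3 libraries of each group; blue points are WT, orange points SKG, and the black line is the mean. Kcnj8 is seen in NKT1, Kcnk1 in NKT17 and Kcna1 in WT NKT17, while Kcnk5, Kcna3 and Kcnn4 are present in every group.

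The other 3 genes were graded over the subsets. Kcnk5 was highest in NKT17: in WT it had 50.6, 49.0 and 62.3 CPM in NKT17, 25.2, 10.5 and 14.7 CPM in NKT1, and 3.47, 1.75 and 2.26 CPM in NKT2, so that no pair of subsets overlapped. Kcna3 followed a flatter order in WT, with 21.9, 22.4 and 31.3 CPM in NKT17, 16.9, 25.0 and 11.5 CPM in NKT1, and 16.6, 7.17 and 9.54 CPM in NKT2; NKT1 overlapped both other subsets. Kcnn4 ran the other way, with 142, 186 and 194 CPM in WT NKT2, 79.6, 89.4 and 90.9 CPM in WT NKT1, and 9.37, 47.0 and 29.8 CPM in WT NKT17, again without overlap. Of all genes tested, 41.6% did not overlap between WT NKT1 and NKT2, 34.1% between NKT1 and NKT17 and 37.2% between NKT17 and NKT2. WT NKT17 replicate 1 had the lowest Kcnn4 level of all 18 libraries (48 counts).

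For the genotypes, the question was which of these transcripts differ in cells with weakened ZAP70. Calls required a fold of at least 1.5 and an adjusted p under 0.1 (edgeR quasi-likelihood test, Benjamini-Hochberg over 11118 genes). Of the 8 genes, 6 passed the filter on low counts; Kcna2 and Abcc9 did not and were not tested. Kcna1 passed only through WT NKT17, the group in which it is high, so its genotype difference is given as a description. In NKT1 cells Kcna3 and Kcnk5 rose in SKG, where 3.27% of all genes tested were called, 1.46% higher and 1.82% lower. In NKT2 cells Kcnk5 rose, against 7.95% of all genes called (3.9% higher, 4.05% lower). In NKT17 cells Kcnn4 rose and Kcnk1 fell, against 8.37% of all genes called (3.83% higher, 4.54% lower). The 3 comparisons share no library, but all come from 1 fit of the 18 libraries with a shared estimate of the spread. Deviations of libraries with the same genotype and title token were correlated across subsets (median r 0.17, 12 of 18 pairs over 0.1). The comparisons are therefore not taken as independent.

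Kcnk5 had 37.0, 52.7 and 47.1 CPM in SKG NKT1, every library above the WT range of 10.5 to 25.2 CPM. The change was 2.67-fold (log2 1.42, SE 0.25, adjusted p = 0.00213). In NKT2 the SKG libraries had 9.91, 13.1 and 13.2 CPM against 1.75 to 3.47 CPM in WT, a 4.89-fold rise (log2 2.29, SE 0.32, adjusted p = 4.68e-05). In NKT17 cells, where this leak channel was already highest in WT, SKG libraries had 62.2, 62.3 and 75.4 CPM against 49.0 to 62.3 CPM, and the groups overlapped. The difference there was log2 0.30 (95% interval -0.20 to 0.80, adjusted p = 0.527). The NKT1 and NKT2 calls held in each of 12 alternative fits, with adjusted p of at most 0.0370 and 0.00110.

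The effect of the SKG genotype on Kcnk5 was smaller in NKT17 than in NKT2 by 1.99 on the log2 scale (SE 0.41, adjusted p = 0.00970), and this held in all 18 alternative fits (adjusted p 0.000597 to 0.0471); 2.19% of genes were called for that difference. The WT means of NKT17 and NKT2 stood 21.8-fold apart and the SKG means 5.49-fold. These subset differences make up the difference of effect, and Kcnk5 was picked for its pattern over the subsets. The adjusted p of such a difference is therefore descriptive, here and for Kcnn4 and Kcna3 below. Against NKT1, the effect in NKT17 was smaller by 1.12 (SE 0.35, adjusted p = 0.0925; 4.17% of genes called). That call was lost in 10 of 18 alternatives, with adjusted p up to 0.187: when only the libraries compared were fitted, and on leaving out WT NKT1 replicate 2 or 3, SKG NKT1 replicate 2 or 3, WT NKT17 replicate 1 or 3, or any 1 SKG NKT17 library. The effects in NKT2 and NKT1 differed by log2 0.87 (95% interval 0.02 to 1.72, adjusted p = 0.343), which was not called; 3.87% of genes were.

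Kcnn4, the calcium-activated channel, had its largest estimated SKG change in NKT17, where its WT level was lowest. The differences of effect between subsets, given below, were not called or not stable. In NKT17 cells the SKG libraries had 186, 143 and 196 CPM (1311, 817 and 1044 counts) against 9.37 to 47.0 CPM (48 to 270 counts) in WT. This was a 6.05-fold rise (log2 2.60, SE 0.36, adjusted p = 0.000383), called in each of 12 alternative fits with adjusted p of at most 0.0619. In NKT1 cells the SKG libraries had 209, 179 and 188 CPM against 79.6 to 90.9 CPM, and in NKT2 cells 246, 253 and 297 CPM against 142 to 194 CPM. Neither pair overlapped, as in 16.3% and 30.1% of all genes, and neither was called (log2 1.15, SE 0.34, adjusted p = 0.105, and log2 0.61, SE 0.33, adjusted p = 0.333). When only the 6 libraries compared were fitted, both were called, at adjusted p = 0.000370 in NKT1 and 0.00280 in NKT2, and DESeq2 called NKT1 at 0.0445. The spread of Kcnn4 that enters the fit of all 18 libraries includes that of WT NKT17.

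In WT cells the highest and lowest Kcnn4 means, in NKT2 and NKT17, stood 6.03-fold apart, and in SKG 1.52-fold. As for Kcnk5, such subset differences chose the gene and make up the difference of effect, so its adjusted p is descriptive. The SKG effect was larger in NKT17 than in NKT2 by log2 1.99 (SE 0.48, adjusted p = 0.0670), but this call was lost in 10 of 18 alternatives, with adjusted p of 0.115 to 0.171: without the filter on low counts, with only the libraries compared, and on leaving out WT NKT2 replicate 2 or 3, any 1 SKG NKT2 library, WT NKT17 replicate 3, or SKG NKT17 replicate 1 or 3. Against NKT1 the effect in NKT17 was larger by 1.45 (SE 0.48, adjusted p = 0.156), which was not called in the fit of all libraries. It was called by DESeq2 (0.0978) and on leaving out WT NKT17 replicate 1 (log2 1.01, adjusted p = 0.0280) or replicate 2 (log2 1.94, adjusted p = 0.0196). The summed NKT2 markers ranged over 1391 to 1524 CPM in SKG NKT17 and 1389 to 1531 CPM in WT NKT17. Icos held most of both sums, with means of 972.3 CPM in SKG and 935.9 CPM in WT. Single markers moved in both directions. Ccr7 (100.4 against 45.55 CPM) and Cd4 (19.81 against 12.91 CPM) had higher means in SKG NKT17 than in WT NKT17. Zbtb16 (110.6 against 162.3 CPM), Il4 (12.28 against 25.73 CPM) and Gata3 (243.7 against 268.1 CPM) had lower ones. Of the 6 markers, 1 was called higher and 1 lower in SKG NKT17, where 8.37% of all genes were called. The share of NKT2-like cells was not tested.

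Kcnk1 fell 2.72-fold in SKG NKT17 (log2 -1.44, SE 0.24, adjusted p = 0.000646), with every SKG library under the lowest WT library, 94.8 CPM. It was called in each of 12 alternative fits, with adjusted p of at most 0.00949. Kcna1 was at least 37.2-fold lower in SKG NKT17 than in WT, taking 3 counts per library as the limit for the SKG group, and the 3 WT libraries varied from 40 to 160 counts. The summed NKT17 markers of the 2 groups were close, at 2389 to 2453 CPM in SKG and 2382 to 2483 CPM in WT. Single markers did differ, as Il23r with a mean of 244.5 CPM in SKG against 454.1 CPM in WT. Of the 6 markers, 1 was called higher and 2 lower in SKG NKT17, where 8.37% of all genes were called.

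Kcna3, the voltage-gated channel of T cells, had 25.1, 57.3 and 36.9 CPM in SKG NKT1 against 16.9, 25.0 and 11.5 CPM in WT. The rise was 2.23-fold (log2 1.16, SE 0.32, adjusted p = 0.0502). The lowest SKG library (25.08 CPM) and the highest WT library (25.01 CPM), which share the token 7_10 in their titles, were nearly equal, while those that share the token 7_11 had 57.3 and 11.5 CPM; the labels do not say what these tokens mark. The call was lost on leaving out WT NKT1 replicate 1 (adjusted p = 0.120), WT NKT1 replicate 3 (0.159) or SKG NKT1 replicate 2 (0.293), and with only the 6 libraries compared (0.185). In NKT17, SKG libraries had 43.5, 49.2 and 34.9 CPM against 21.9 to 31.3 CPM in WT, without overlap, as in 26.9% of genes. That difference, log2 0.75 (SE 0.31, adjusted p = 0.151), was not called, though the fit of those 6 libraries alone called it (0.0412). In NKT2 cells both means were 11.1 CPM, with a log2 difference of 0.01 (95% interval -0.69 to 0.72). The SKG effects on Kcna3 were not called as different between any 2 subsets (adjusted p = 0.243, 0.754 and 0.627).

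Kcnj8 in NKT1 was 1.498-fold lower in SKG (log2 -0.58, SE 0.23, adjusted p = 0.257). It was not called in the fit of all libraries or in any of 12 alternatives, the 95% interval was -1.08 to -0.09, and the SKG libraries at 124 and 122.9 CPM lay above the lowest WT library at 121 CPM. The 2 libraries that share the token 7_10 differed by log2 0.04.

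**Figure D2:**
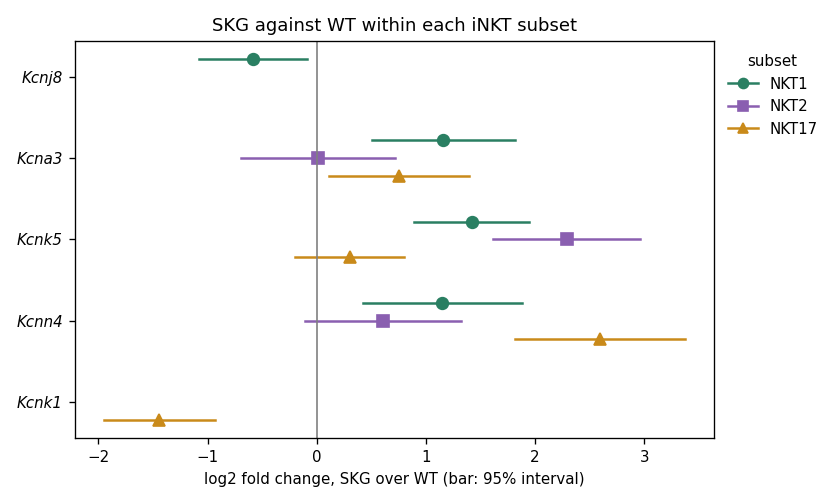
Log2 fold change of SKG over WT (horizontal axis) for 5 genes in each subset where at least 1 library of each genotype had more than 3 counts; symbols are the estimates of the fit over 18 libraries and lines their 95% intervals. Kcnk5 is furthest to the right in NKT2 and Kcnn4 in NKT17, and Kcnk1 lies to the left of 0 in NKT17.

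To compare levels between genes, CPM was divided by the length of each gene's merged exons. On this scale Kcnj8 made up 60.4% ± 7.90 (SD, n = 3) of the summed level of the 8 genes in WT NKT1 and Kcnn4 28.1% ± 6.00; in SKG NKT1 the shares were 31.6% ± 3.94 and 47.5% ± 5.34. In NKT2 cells Kcnn4 held 91.1% ± 4.79 in WT and 91.8% ± 0.454 in SKG. In WT NKT17 cells the summed level was made up of 55.8% ± 7.35 from Kcnk1, 16.7% ± 0.515 from Kcnk5, 13.3% ± 0.595 from Kcna3 and 12.0% ± 8.74 from Kcnn4. In SKG NKT17 the Kcnk1 share was 15.1% ± 1.59 and the Kcnn4 share 52.8% ± 3.47. Kcnn4 thus had the largest mean share of the 8 in every SKG group, but only in NKT2 among the WT groups. Shares of 1 sum depend on each other, and in NKT1 neither Kcnj8 nor Kcnn4 was called between genotypes in the fit of all libraries. Exon lengths are those of GENCODE M1, while the annotation behind the counts is not given. The summed level per kb was 125 ± 20.2 in WT and 161 ± 12.6 in SKG NKT1, where the lowest SKG library (147) stood just above the highest WT library (146). It was 75.4 ± 8.64 and 114 ± 11.3 in NKT2, and 96.1 ± 15.9 and 130.4 ± 13.3 in NKT17, where the closest libraries were at 115.6 in SKG and 114.4 in WT.

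**Figure D3:**
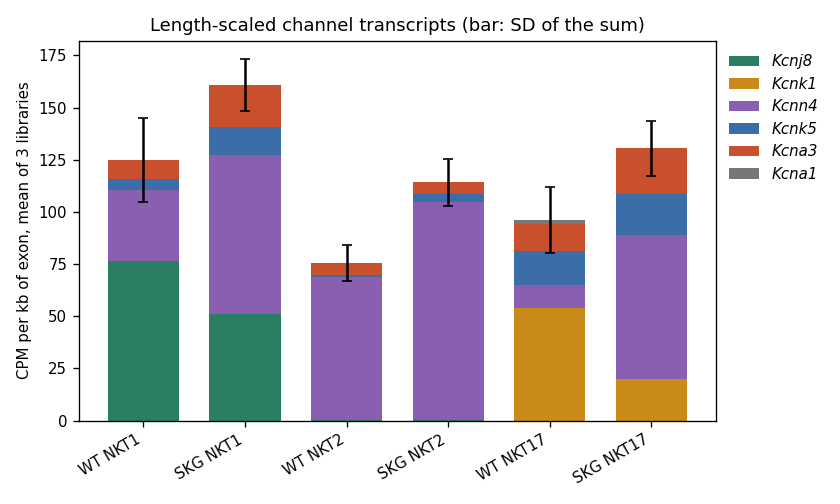
Stacked mean CPM per kb of exon (vertical axis) of the potassium channel genes in each group (3 libraries each); error bars are the SD of the sum. The Kcnj8 block in NKT1 and the Kcnk1 block in NKT17 are smaller in SKG, and the Kcnn4 block is larger in SKG in each subset.

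Genes whose log2 CPM followed each channel most closely over the 18 libraries are given as a description, since the libraries share their groups. Kcnn4 was most like S1pr1, the receptor through which thymocytes leave the thymus (Pearson's r 0.975), and no other gene came near this, the next being 2610019F03Rik at 0.862. S1pr1 means went from 1.62 ± 1.57 CPM in WT NKT17 to 20.5 ± 3.97 in SKG NKT17, and from 11.0 ± 3.36 to 40.2 ± 9.07 CPM in NKT1; in NKT2 they were 37.4 ± 15.9 and 57.9 ± 7.17 CPM. In WT NKT17 replicate 1, the library with the least Kcnn4, S1pr1 stood at 0.195 CPM.

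Kcnk1 was most like Cdh10 (r 0.998), a cadherin, which went from 34.6 ± 5.83 CPM in WT NKT17 to 18.2 ± 2.44 in SKG NKT17 and had 0 counts in NKT1 and NKT2. Kcna1 was most like Glyat (0.964), which stood at 19.0 ± 10.2 CPM in WT NKT17, at 0.0944 CPM in SKG NKT17 and at 0 in the other groups. Kcnj8 followed G0s2, an inhibitor of triglyceride lipase (0.996), and the interferon-induced genes Ifitm1 (0.995) and Ifitm2 (0.991). Kcna3 was most like Edaradd (0.875), which was also among the 3 genes most like Kcnk5 (0.946), beside the thrombin receptor gene F2r (0.947) and Gprin3 (0.948). Between Kcna3 and Kcnk5 themselves r was 0.818.

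AI504432, a gene 1374 bases to the right of Kcna3, had a similar pattern at a lower level (r 0.806 on log2 of CPM + 1). Its means were 6.03 and 12.2 CPM in WT and SKG NKT1, 4.09 and 3.88 CPM in NKT2, and 7.09 ± 1.03 and 16.3 ± 1.71 CPM in NKT17. It was called in NKT17 (log2 1.19, SE 0.36, adjusted p = 0.0377), where Kcna3 was not, and not in NKT1 (log2 1.00, adjusted p = 0.174). As the strand setting is not known here, reads of adjoining transcripts cannot be told apart. Of the other neighbours, Kcna5, Kcna6, Kcna10, Kcnk16 and Lypd5 had no counts, while 1500002O20Rik, 14409 bases to the right of Kcnn4, had means of 21.7 to 31.1 CPM over the 6 groups (r 0.505 with Kcnn4).

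**Figure D4:**
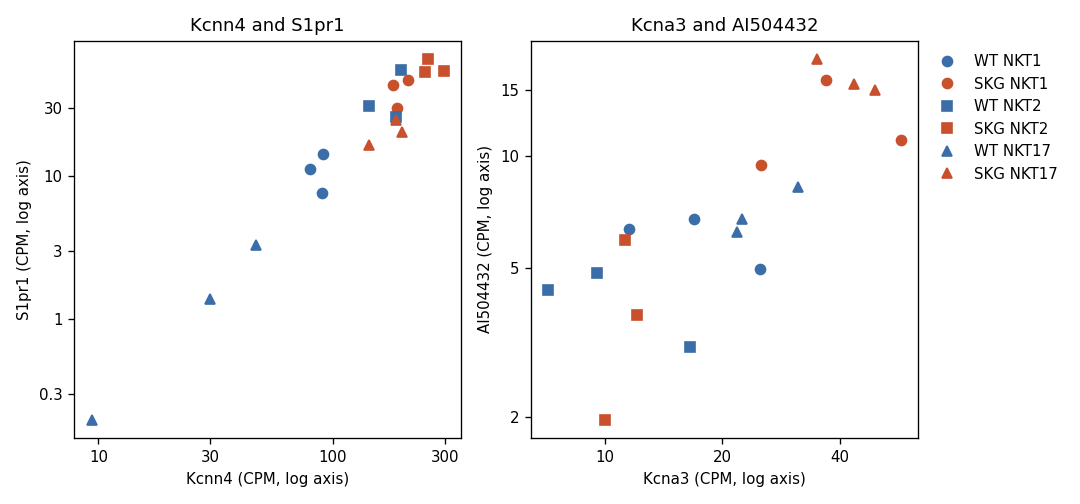
Level in CPM (both axes logarithmic) of S1pr1 against Kcnn4 and of AI504432 against Kcna3 in the 18 libraries; blue is WT, orange SKG, circles NKT1, squares NKT2 and triangles NKT17. In the left panel the WT NKT17 libraries lie lowest on both axes and the SKG NKT17 libraries lie above the WT NKT1 libraries.

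Other ion channel and pump genes were taken as lists by symbol (potassium and sodium channels, calcium entry and TRP channels, chloride and volume-regulated channels, purinergic, mechanosensitive and proton channels, the sodium-potassium pump with cation-chloride cotransporters, and regulators of KCa3.1). The symbol patterns also caught Kcnq1ot1, a non-coding RNA, and Trpc4ap, a TRPC4-associated protein. Of 146 such genes with a count, 66 were tested. In NKT1, 1 rose and 1 fell in SKG (3.03% of those tested, against 3.27% of all genes); in NKT2, 6 rose and 1 fell (10.6% against 7.95%); and in NKT17, 5 rose and 5 fell (15.2% against 8.37%). The median log2 differences were 0.06, 0.12 and 0.14, against -0.01, 0.00 and 0.00 over all genes.

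Among the other potassium channel genes, 11 of 44 with a count were tested, with 0 called in NKT1 and in NKT2 and 2 lower in SKG NKT17. Kcnf1, a voltage-gated subunit that is silent on its own, had 84.5 ± 9.50 CPM in WT NKT17 and 4.60 ± 0.984 in SKG NKT17 (log2 -4.18, SE 0.55, adjusted p = 0.000164). Like Kcnk1, it was thus lower in the SKG NKT17 libraries. Unlike Kcnk1, Kcnf1 was also present in NKT2, at means of 29.9 CPM in WT and 16.2 CPM in SKG. Kcnc1, which encodes Kv3.1, was an NKT17 transcript like Kcnk1, at 25.9 ± 6.95 CPM in WT NKT17 and 0 in WT NKT1 and NKT2; in SKG NKT17 it stood at 42.6 ± 0.928 CPM and was not called (log2 0.72, SE 0.39, adjusted p = 0.309). The other was Kcnq5, another voltage-gated channel gene, with 3.21 ± 0.240 CPM in WT NKT17 and 0.883 ± 0.716 CPM in SKG NKT17.

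Of 13 sodium channel genes with a count only 3 were tested. In WT cells the pore genes Scn8a and Scn11a were at 3.44 ± 0.902 and 3.78 ± 0.377 CPM in NKT2 and at 0.0457 and 0.325 CPM in NKT17, both called, as were 20% of all genes in that comparison.

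Among the rest, Trpm6, a magnesium-permeable channel, moved in opposite directions. In SKG it rose in NKT1 (3.80 ± 0.267 to 14.5 ± 4.63 CPM, log2 1.93, SE 0.27) and in NKT2 (29.5 ± 2.40 to 65.2 ± 5.58 CPM, log2 1.14, SE 0.22), and fell in NKT17 (42.3 ± 1.62 to 23.4 ± 6.91 CPM, log2 -0.86, SE 0.22); the fall was lost on leaving out SKG NKT17 replicate 1 (log2 -0.63, adjusted p = 0.118). Lrrc8c, of the volume-regulated anion channel, rose in NKT2 (38.1 ± 1.53 to 65.9 ± 5.00 CPM) and NKT17 (31.1 ± 7.68 to 60.8 ± 8.88 CPM). The pump subunit gene Atp1b1 fell in SKG NKT1 from 118 ± 36.3 to 54.1 ± 6.63 CPM (log2 -1.12, SE 0.23), with 24.6 ± 4.26 CPM in WT NKT2 and 27.95 ± 1.56 CPM in SKG NKT2, while Atp1b3 rose in NKT2 (766 ± 73.3 to 1274 ± 151 CPM) and NKT17 (858 ± 117 to 1343 ± 121 CPM). The last of these was lost, by falling under 1.5-fold, without WT NKT17 replicate 1 or SKG NKT17 replicate 1. None of 8 genes for regulators of KCa3.1, among them Phpt1, was called between genotypes in any subset, where 3.27% to 8.37% of all genes were. For a list of 8 genes this is near the background and does not show that they are unaffected. Between WT NKT1 and NKT2, 2 of 8 were called, against 27.5% of all genes, and between WT NKT1 and NKT17 2 of 8, against 24.7%; these shares are near the background. Phpt1 was lower in NKT1 (46.3 ± 4.66 CPM) than in NKT2 (114 ± 6.86 CPM) and NKT17 (78.6 ± 9.93 CPM).

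**Figure D5:**
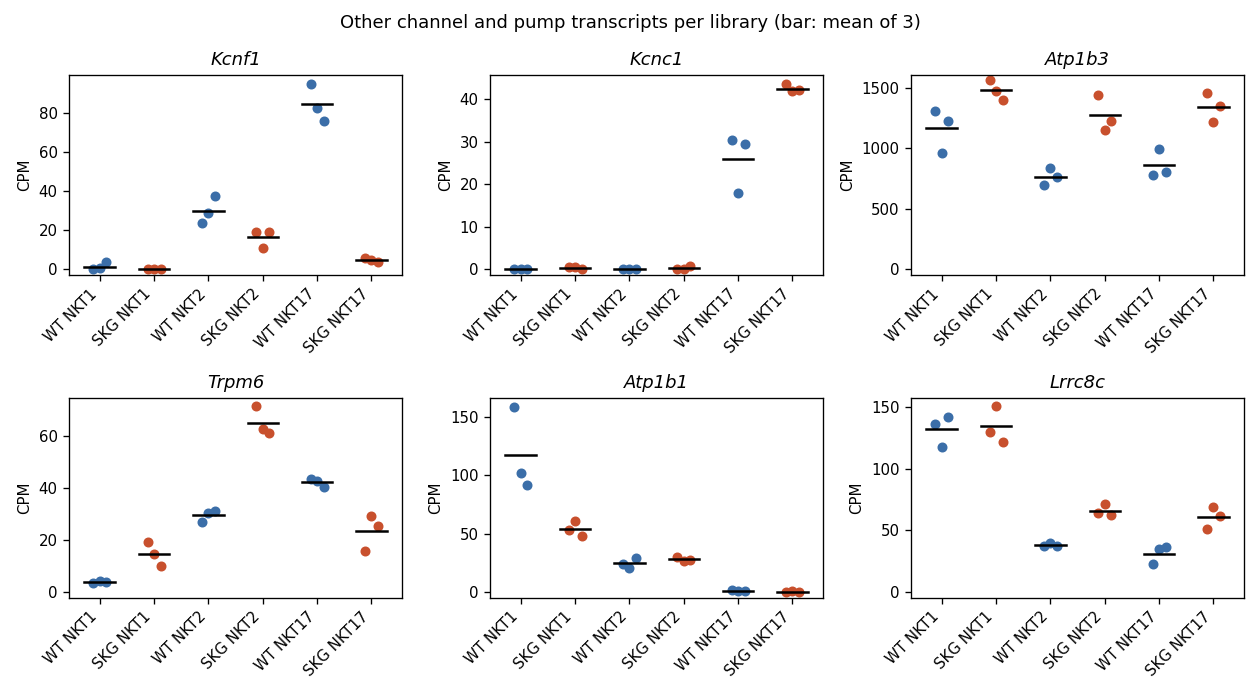
Level in CPM (vertical axes, linear, own scale per panel) of 6 other channel and pump genes in the 3 libraries of each group; blue is WT, orange SKG, and the black line the mean. Kcnf1 drops in SKG NKT17, Kcnc1 is seen in NKT17 of both genotypes, and Trpm6 is higher in SKG NKT1 and NKT2 and lower in SKG NKT17.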

How the data were processed

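RNA of thymic iNKT subsets from WT and SKG mice was measured in 18 libraries, 3 per group. The authors deposited 1 table of raw read counts per gene and library. The methods name PRINSEQ, TopHat and htseq-count in union mode on mm9, and the submitters' processing notes name Bowtie 1.0.0, TopHat 1.4.1 and HTSeq 0.7.1 with other builds; the annotation and strand setting are not given in the sources used here. A further 2 columns of the table match no listed sample and were not used. PCR duplicates were not marked by molecular identifiers. The floor of 3 counts covers counting error only, and the intervals of log2 differences cover the spread between libraries.

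The counts were tested with edgeR 4.0.16 (R 4.3.3): TMM scaling, filterByExpr, and a robust quasi-likelihood fit of all 18 libraries with 6 groups (12 residual degrees of freedom), called at adjusted p under 0.1 and a fold of at least 1.5. Standard errors were derived from the log2 fold change and its F statistic, and intervals are 95%. CPM uses TMM-scaled totals (factors 0.928 to 1.07). Against groups in which no library exceeded 3 counts, folds are lower bounds against 3 counts per library. Likeness was Pearson's r of log2 CPM with a prior count of 2, naming the top 3 genes; other channel genes were named as up to 4 called genes per direction with the smallest p. Kcnq5, Cd8b1, Blk, Cd79b and Pecam1 were named after their values were seen. The single levels of Icos, Zbtb16, Cd4, Gata3, Il4, Ccr7 and Il23r were also added after they were seen. The members and lists were chosen with earlier results of these data known. Alternatives were RLE and upper-quartile scaling, no filter, DESeq2 1.42.0, only the libraries compared, a block for the title token, and leaving out each library; for named channel genes some of these were added after seeing the data. The fit was tested on simulated data. Some named genes are not reported here. Positions are from GENCODE M1 on NCBIM37.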

Additional observations from a re-analysis of the deposited data

Results flagged for a closer look

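The SKG effect differed between subsets, by the test of the difference itself, for 2 of the potassium channel genes described above and 5 other channel or pump genes. The values are on the log2 scale with SE and edgeR's adjusted p. Kcna3, Kcnk5 and Kcnn4 were picked for a pattern over the subsets, and the channel genes for an SKG difference in some subset. Only these were looked up, so the picking used values that enter this test. Of all genes, 3.87% (NKT2 minus NKT1), 4.17% (NKT17 minus NKT1) and 2.19% (NKT17 minus NKT2) were called. Of the 66 listed channel genes tested, 4.55%, 6.06% and 4.55% were. For Kcnk5 the effect in NKT17 minus that in NKT1 was -1.12 (SE 0.35, 0.0925) and minus that in NKT2 -1.99 (SE 0.41, 0.00970). For Kcnn4 the effect in NKT17 minus that in NKT2 was 1.99 (SE 0.48, 0.0670). This Kcnn4 call and the Kcnk5 call for NKT17 minus NKT1 were each lost in 10 of 18 alternatives.

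For Trpm6 the effect in NKT17 was below that in NKT1 by a difference of -2.79 (SE 0.35, 4.00e-05) and below that in NKT2 by -1.9996 (SE 0.32, 0.000881). For Kcnf1 the effect in NKT17 minus that in NKT2 was -3.30 (SE 0.71, 0.0332). For Atp1b1 the effect in NKT2 minus that in NKT1 was 1.30 (SE 0.33, 0.0288), and in NKT17 minus NKT2 -2.63 (SE 0.74, 0.0884), although Atp1b1 had at most 9 counts in any NKT17 library. For Lrrc8c the effect in NKT2 exceeded that in NKT1 by 0.77 (SE 0.23, 0.0768), and that in NKT17 did so by 0.93 (SE 0.23, 0.0255). For Hvcn1, the voltage-gated proton channel, the effect in NKT17 minus that in NKT1 was 0.98 (SE 0.29, 0.0794). No alternative fits were run for the differences of effect in this paragraph.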

How the results depend on the processing

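Of the differences between genotypes for the potassium channel genes, those of Kcnk5 in NKT1 and NKT2, of Kcnn4 and Kcnk1 in NKT17, and of the Kcnk5 effect between NKT17 and NKT2 kept their call in every alternative tried. For Kcna1 in NKT17, given above without a test, the log2 bound was -5.22, and -5.23 with DESeq2. No call is used for it, as it passed the filter only through WT NKT17. The 2 tools also differed in whether they called it. The cause of the changes in this paragraph was not tested. With only the libraries compared, Kcna3 was not called in NKT1 (log2 1.17), Kcnn4 was called in NKT1 (1.17) and NKT2 (0.62), Kcna3 was called in NKT17 (0.75), and the differences of effect for Kcnk5 between NKT17 and NKT1 (-1.14) and Kcnn4 between NKT17 and NKT2 (1.99) were lost; genes called in NKT1 were 207 against 364, with 182 in both. Without the filter the last was lost too (1.99, adjusted p = 0.115). DESeq2 called Kcnn4 in NKT1 (1.16) and its difference of effect between NKT17 and NKT1 (1.43), and 4 listed channel genes in NKT1 against 2. Kcna3 in NKT2 changed sign with upper-quartile scaling (-0.00246) and DESeq2 (-0.00161), and ranged from -0.22 to 0.41 on leaving out 1 library. Leave-one-out ranges were 0.82 to 1.49 for Kcna3 in NKT1, -1.55 to -0.91 for the Kcnk5 and 1.01 to 1.94 for the Kcnn4 difference of effect between NKT17 and NKT1, 1.58 to 2.50 for the Kcnn4 difference between NKT17 and NKT2, 296 to 537 genes called for a difference of effect between NKT17 and NKT1 (296 without SKG NKT17 replicate 3), and 157 to 256 between NKT17 and NKT2 (157 without SKG NKT17 replicate 1). The SKG difference of Kcna3 between NKT1 and NKT17 was 0.16 without SKG NKT1 replicate 1 and 0.02 without SKG NKT17 replicate 2, against -0.10 with all libraries, and at its lowest -0.44. Of the 3 genes most like Kcnk5, 1 remained with a prior count of 5.

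The title token was tried as a replicate block. Deviations of libraries with the same token and genotype in other subsets had r of -0.06 to 0.35 (12 of 18 pairs over 0.1). Those of WT and SKG libraries of 1 subset with the same token had -0.15 to 0.09 (0 of 6), and with other tokens -0.133 to 0.159. No pairing of the genotypes by token was thus seen, but 6 pairs are too few to show that there is none. With the replicate block, the Kcnn4 difference of effect between NKT17 and NKT1 was called (log2 1.57, adjusted p = 0.0389); no other member's call changed, and 390, 1044 and 913 genes were called in NKT1, NKT2 and NKT17 against 364, 884 and 931. Low counts limit Kcna2 and Abcc9, whose differences were not detectable at this depth.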
